A study of Mus musculus with 12 samples.

Results

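The enzymes and regulators of fatty acid oxidation were followed in whole kidneys of diabetic and non-diabetic mice with and without the chemokine-scavenging receptor D6. The set was a list of 34 gene symbols, chosen for mitochondrial and peroxisomal fatty acid oxidation and for known targets of the nuclear receptor PPAR alpha. A gene was represented by the probe set annotated to its symbol alone, or by the one with the highest mean where there were several. This gave 33 genes of the 19936 in the table, since Acsl1 had no probe set of its own and its expression was not analysed here. All 33 lay above the limit for low values and were among the 16480 genes tested, and every group mean of each was above 5.93, a background level set by 1027 olfactory receptor genes, of which 95% had a mean no higher.

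The arrays came from 12 mice of 6 months, 3 per group, with 1 array per mouse and free access to standard chow. FVB mice were non-diabetic with wild-type D6, and D6 mice were non-diabetic with homozygous deletion of D6, the product of Ackr2. OVE mice were diabetic with wild-type D6, and OVE-D6 mice were diabetic with the deletion. All 4 groups were on the FVB background and the labels name no drug. The OVE26 line carries a calmodulin transgene expressed in pancreatic beta cells, so its diabetes follows from lack of insulin. The deletion came from C57BL/6 mice, was brought into FVB over 10 or more generations and into OVE over 2, so DNA near the locus can still differ between the genotypes. The labels do not give the sex of the mice. On all arrays the log2 value of Xist lay between 12.53 and 12.87. The Y-linked genes Eif2s3y, Uty and Kdm5d lay between 3.55 and 5.33, which is the pattern of female mice.

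Long-chain fatty acids are activated to acyl-CoA, carried into mitochondria as carnitine esters and shortened there in a spiral of dehydrogenation, hydration, a further dehydrogenation and thiolysis. Peroxisomes carry out a similar sequence on very long and branched chains, and thioesterases release free fatty acids from acyl-CoA in both organelles. The proximal tubule draws most of its energy from this pathway, and PPAR alpha, with its coactivator encoded by Ppargc1a, raises many of these genes when fatty acids are plentiful.

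PPAR alpha binds DNA with the retinoid X receptor at a direct repeat, 2 copies of AGGTCA with 1 base between them. RefSeq promoter windows of 300 bases (assembly GRCm38.p6, 250 before to 50 after the start) were sought for all 34 listed genes. They were found for 29 genes in 30 windows, Acsl1 among them, and Acaa2, Crat, Decr1, Hsd17b4 and Vnn1 had none. Both strands were searched for the repeat with at most 2 mismatches outside the spacer, and for AGGTCA alone, which can lie inside a repeat. A repeat lay in 4 of the 30 windows (13.3%), against 1268 of all 32851 windows in the table (3.86%). AGGTCA alone lay in 5 of the 30 (16.7%) and in 16.3% of all windows. The windows of Acsl1 held neither. The 4 windows with a repeat are printed with those of Acot1 and Acot2, the 2 members with the largest folds with diabetes that had a window. Each run is 150 bases, read 5′ to 3′ along the gene's strand, with the repeat in capitals.
Acot12: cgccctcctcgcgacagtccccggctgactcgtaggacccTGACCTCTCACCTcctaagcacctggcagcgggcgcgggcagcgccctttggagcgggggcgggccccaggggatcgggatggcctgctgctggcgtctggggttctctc
Slc25a20: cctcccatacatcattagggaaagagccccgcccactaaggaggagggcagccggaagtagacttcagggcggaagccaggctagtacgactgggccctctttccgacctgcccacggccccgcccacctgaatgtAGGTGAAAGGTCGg
Acot4: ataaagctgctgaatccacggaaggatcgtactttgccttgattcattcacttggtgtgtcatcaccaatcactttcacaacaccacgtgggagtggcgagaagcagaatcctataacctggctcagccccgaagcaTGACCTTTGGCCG
Etfa: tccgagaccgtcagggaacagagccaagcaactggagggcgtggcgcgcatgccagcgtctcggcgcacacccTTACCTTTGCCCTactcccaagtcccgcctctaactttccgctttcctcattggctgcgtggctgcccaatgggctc
Acot1: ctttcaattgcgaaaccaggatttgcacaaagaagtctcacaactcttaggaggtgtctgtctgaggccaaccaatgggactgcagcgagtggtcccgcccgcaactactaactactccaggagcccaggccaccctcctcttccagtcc
Acot2: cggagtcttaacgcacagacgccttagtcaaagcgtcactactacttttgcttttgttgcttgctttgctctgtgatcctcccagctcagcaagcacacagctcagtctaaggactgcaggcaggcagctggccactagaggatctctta
The Acot12 stretch is chr13:91741371-91741520 on the plus strand. Its repeat, AGGTGAGAGGTCA on the minus strand from -110 to -98 of the start, has 1 mismatch to the motif, C5G, counted from 1 at the motif's 5′ end. The Slc25a20 stretch is chr9:108662006-108662155 on the plus strand and holds AGGTGAAAGGTCG from position 7 to 19 after the start, with C5G and A13G. The Acot4 stretch is chr12:84038229-84038378 on the plus strand, and its repeat on the minus strand, CGGCCAAAGGTCA from -13 to -1, has A1C and T4C. The Etfa stretch is chr9:55512244-55512393 on the minus strand, and its repeat, AGGGCAAAGGTAA from -77 to -65 on the strand opposite to the gene, has T4G and C12A. The Acot1 and Acot2 stretches, chr12:84009352-84009501 and chr12:83987711-83987860, both on the plus strand, lie on the same chromosome with 21641 bases between the starts. Their windows had the same base at 74 of 300 positions, and neither held the repeat. These matches describe the letters in a short window and nothing about binding. Of the 4 genes with a repeat, Acot12 and Slc25a20 passed the test of the averaged diabetes effect, and Acot4 and Etfa did not.

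As a check of the tissue, the proximal tubule genes Lrp2, which encodes the endocytic receptor megalin, and Slc34a1, a phosphate transporter, lay between 12.9 and 13.43 and between 13.51 and 13.87 on the log2 scale on all arrays. Within its range Lrp2 was lower in OVE than in FVB (-0.35 ± 0.08, limma adjusted p = 0.0269). Ackr2 itself lay between 6.74 and 7.04 in all groups, and whether its probe set covers the deleted part was not used here. Some arrays carried RNA of neighbouring tissue. Ucp1, which defines brown fat, lay at 10.09 and 8.29 on FVB replicates 2 and 3, at 7.02 on D6 replicate 3, and between 4.86 and 5.95 on the other 9 arrays. The mean of 7 brown fat markers was 8.61 and 7.95 on those FVB arrays and between 6.87 and 7.43 elsewhere. Cyp11b1, which defines adrenal cortex, lay at 9.93 on OVE-D6 replicate 3 and between 5.27 and 5.76 on the other arrays. Means of 11 white fat markers ran from 7.52 to 8.93 in FVB, 7.88 to 8.27 in D6, 8.17 to 8.52 in OVE and 7.75 to 8.86 in OVE-D6. Counts of called members are therefore also given without FVB replicates 2 and 3 and OVE-D6 replicate 3. This leaves FVB with 1 array that is assumed to vary like the others. D6 replicate 3, with Ucp1 at 7.02, and OVE-D6 replicate 1, with a white fat marker mean of 8.86, stayed in that fit. Counts for the other gene lists are given with all arrays only. Brown fat itself expresses many of the members strongly.

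Values are the deposited log2 probe set values, and a difference of 1 is a 2-fold change. Groups were compared with limma over all 12 arrays, and a gene was said to rise or fall where the Benjamini-Hochberg adjusted p over the 16480 tested genes was under 0.05. Errors of differences are SE with n = 3 per group. The effect of diabetes was read in 3 ways: OVE against FVB, OVE-D6 against D6, and the average of these differences. In whole-kidney RNA, fewer cells of a type and less RNA per cell cannot be told apart.

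Averaged over both genotypes, 12 of the 33 members (36.4%) rose in diabetic kidneys and none fell, where 4.49% of all tested genes rose and 3.16% fell. The 12 were 3 of 4 thioesterases (Acot1, Acot2, Acot12), 3 of 4 auxiliary enzymes for unsaturated chains (Decr1, Eci1, Eci2), 2 of 5 carnitine shuttle genes (Slc25a20, Cpt2), 2 of 6 peroxisomal genes (Ehhadh, Pex11a), the last thiolase of the mitochondrial spiral (Acaa2) and Vnn1. None of 4 acyl-CoA dehydrogenases and none of 3 electron transfer genes passed. The median difference was 0.14 over the members and -0.01 over all tested genes. With the brown fat marker mean as a covariate 5 of the 12 passed (Acot1, Acot2, Decr1, Eci1 and Pex11a), where 1.03% of all tested genes rose. Without the 3 arrays named above 1 did (Acot1, adjusted p = 0.0445), where 0.346% of all tested genes rose, and the averaged differences of the 12 then lay between 0.23 and 0.73 against 0.22 and 0.87 with all arrays. With the white fat marker mean as a covariate 11 of the 12 passed, where 3.6% of all tested genes rose.

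With intact D6, 4 of the 33 members (12.1%) rose in OVE over FVB and none fell, where 4.9% of all tested genes rose. They were Acot1, Acot2, Pex11a and Eci1. The OVE and FVB arrays did not overlap for 10 members that were higher in OVE (30.3%, background 13.6%) and for Hadha and Etfa, which were lower (6.06%, background 13.5%). The median difference was 0.06 over the members and -0.02 over all tested genes, and it was -0.02 without OVE replicate 1 and 0.11 without OVE replicate 2. The count of 4 became 2, 1 and 1 without FVB replicate 1, 2 or 3, where 2.74%, 2.11% and 1.88% of all tested genes rose. Without OVE replicate 1 only Acot1 still rose, and Ppargc1a fell, where 3% of all tested genes rose and 1.34% fell. No member rose with the brown fat covariate or without the 3 arrays named above, where 0.34% and 0.133% of all tested genes rose, and the differences of these 4 genes lay between 0.39 and 0.55 and between 0.40 and 0.55. With the white fat covariate all 4 rose, where 4.64% of all tested genes rose.

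In the knockouts, 2 members (6.06%), Acot1 and Decr1, rose in OVE-D6 over D6 and none fell, where 0.182% of all tested genes rose. The arrays did not overlap for 24 of the 33 members (72.7%, background 7.72%), all higher in OVE-D6. The median difference was 0.25 over the members and -0.01 over all tested genes, and 31 of 33 estimates were positive, with Acadm at -0.08 and Acads at -0.03 as the exceptions. The count of 2 was 1 without D6 replicate 1 or 2 or OVE-D6 replicate 1, and 0 without D6 replicate 3 or OVE-D6 replicate 2 or 3. In these fits between 0.0728% and 0.091% of all tested genes rose. The OVE arrays enter the shared estimate of the spread alone. The count was nonetheless 5 without OVE replicate 2 and 4 without OVE replicate 3, where 0.255% and 0.279% of all tested genes rose. Without the 3 arrays it was 0, with a median of 0.24.

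**Figure D1:**
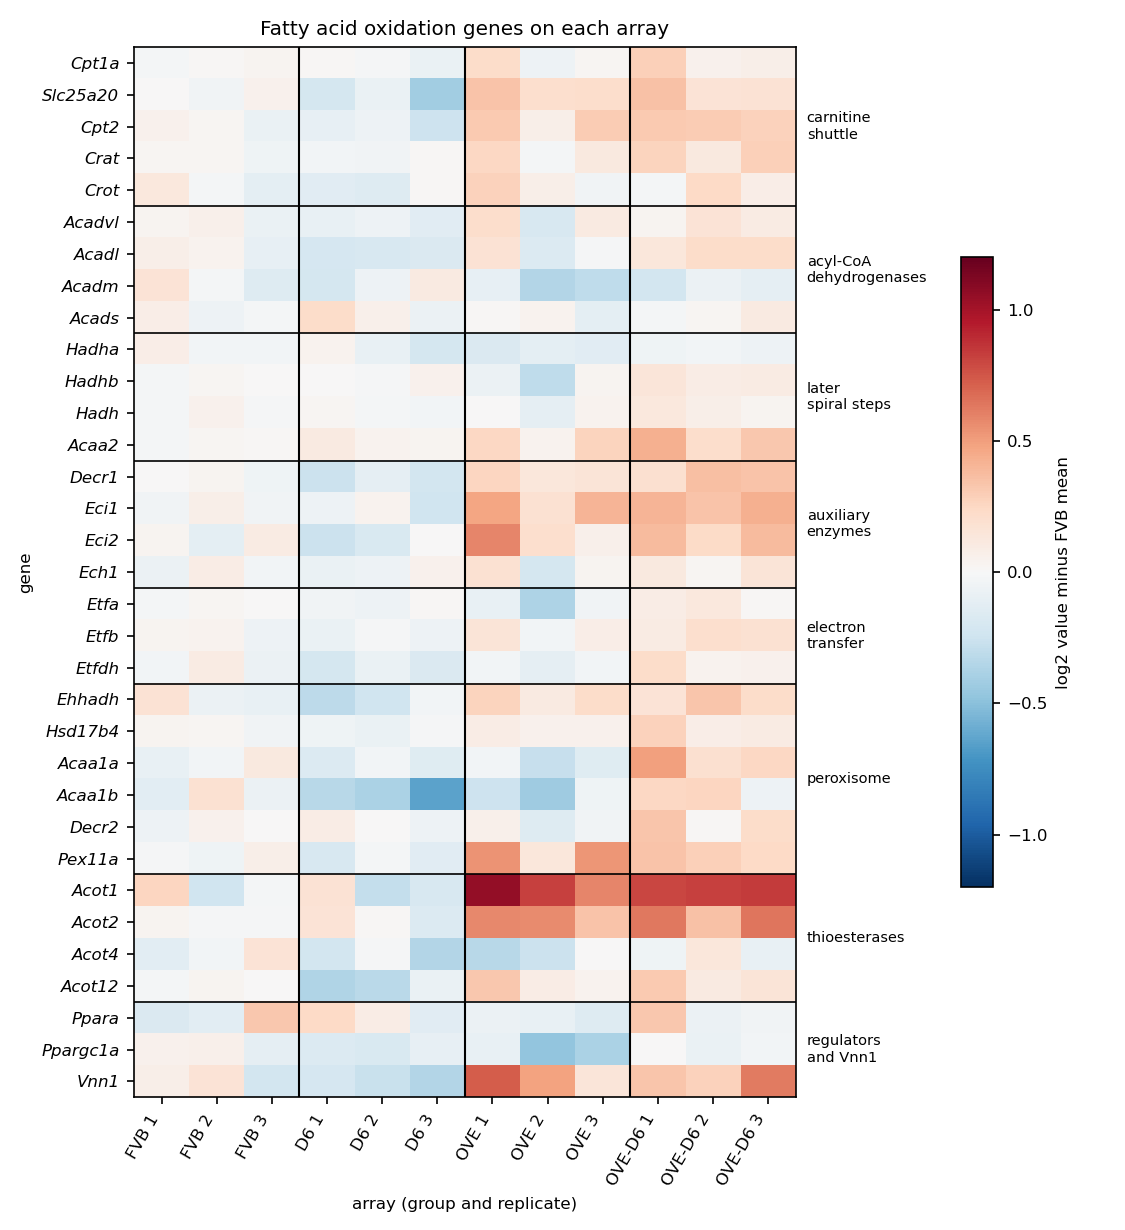
Heat map of the 33 members (rows, by role) on the 12 arrays (columns, by group), coloured by the log2 value minus the gene's FVB mean. Acot1 and Acot2 stand out as high on all 6 diabetic arrays, and OVE replicate 2 is paler than OVE replicate 1 for most members.

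Of the 4 thioesterases 3 rose on average, led by Acot1. Acot1, the cytosolic thioesterase for long chains, lay at 7.85, 7.35 and 7.57 in FVB, 7.76, 7.30 and 7.40 in D6, 8.64, 8.41 and 8.18 in OVE, and 8.39, 8.41 and 8.43 in OVE-D6. Every diabetic array was above every non-diabetic array. Acot1 rose 1.76-fold in OVE over FVB (log2 0.81 ± 0.15, adjusted p = 0.00934), 1.9-fold in OVE-D6 over D6 (0.93 ± 0.15, adjusted p = 0.0226) and 1.83-fold on average (0.87 ± 0.11, adjusted p = 0.000793). The OVE-D6 call was lost without D6 replicate 2 or 3 or any 1 OVE-D6 array (adjusted p from 0.0776 to 0.108). Acot2, its mitochondrial counterpart, lay at 10.61, 10.57 and 10.57 in FVB, 10.74, 10.59 and 10.42 in D6, 11.16, 11.15 and 10.92 in OVE, and 11.21, 10.93 and 11.22 in OVE-D6. Again no diabetic array overlapped a non-diabetic one. It rose 1.41-fold in OVE (0.49 ± 0.11, adjusted p = 0.018) and 1.43-fold on average (0.51 ± 0.07, adjusted p = 0.00268), and differed by 0.53 ± 0.11 in the knockouts (adjusted p = 0.0683). The OVE call was lost without FVB replicate 2 or 3 or OVE replicate 1 or 2 (adjusted p from 0.0572 to 0.0746). Acot1 and Acot2 are close copies of each other, so their probe sets can share signal and their separate sizes are uncertain. Acot12, which hydrolyses acetyl-CoA in the cytosol, lay at 11.01, 11.06 and 11.03 in FVB, 10.67, 10.71 and 10.95 in D6, 11.35, 11.12 and 11.07 in OVE, and 11.34, 11.14 and 11.18 in OVE-D6. Its D6 arrays were the lowest and did not overlap FVB. On average it rose 1.23-fold (0.30 ± 0.07, adjusted p = 0.0247), a call that ended without FVB replicate 1 or 3, D6 replicate 1 or 2, or OVE-D6 replicate 1 (adjusted p from 0.0529 to 0.0626). Acot4, a peroxisomal succinyl-CoA thioesterase, differed by -0.19 ± 0.12 in OVE and 0.19 ± 0.12 in OVE-D6, with an average of 0.00 (95% interval -0.18 to 0.18).

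Of the 4 enzymes that prepare unsaturated chains for the spiral 3 rose on average. Decr1, the mitochondrial dienoyl-CoA reductase, lay at 10.31, 10.34 and 10.26 in FVB, 10.05, 10.20 and 10.09 in D6, 10.57, 10.45 and 10.46 in OVE, and 10.50, 10.67 and 10.65 in OVE-D6. The diabetic arrays were all above the non-diabetic ones, and the D6 arrays all below the FVB ones. Decr1 rose 1.4-fold in OVE-D6 over D6 (0.49 ± 0.07, adjusted p = 0.0179) and 1.26-fold on average (0.34 ± 0.05, adjusted p = 0.00385), while the difference in OVE was 0.19 ± 0.07 (adjusted p = 0.15). The OVE-D6 call was lost without D6 replicate 1 or 3, OVE-D6 replicate 2 or 3, or with only the 2 groups compared (adjusted p from 0.0627 to 0.0961). Eci1, the mitochondrial enoyl-CoA isomerase, lay at 9.55, 9.66 and 9.55 in FVB, 9.53, 9.63 and 9.35 in D6, 10.06, 9.77 and 10.00 in OVE, and 10.00, 9.93 and 10.02 in OVE-D6. No diabetic array fell in the non-diabetic range. It rose 1.34-fold on average (0.42 ± 0.07, adjusted p = 0.00411) and 1.28-fold in OVE (0.36 ± 0.09, adjusted p = 0.0398). The OVE call was lost in 14 of 24 alternatives, among them the replicate block, quantile normalisation and 9 of the 12 fits that left out 1 array (all but those without OVE replicate 2 or D6 replicate 2 or 3), with differences from 0.30 to 0.45 over all alternatives and a highest adjusted p of 0.338. Eci2, an isomerase of mitochondria and peroxisomes, lay at 9.28, 9.13 and 9.35 in FVB, 8.99, 9.07 and 9.25 in D6, 9.84, 9.45 and 9.31 in OVE, and 9.63, 9.48 and 9.63 in OVE-D6. OVE replicate 3 lay within the FVB range. The average rise was 1.3-fold (0.38 ± 0.09, adjusted p = 0.0238), and it was lost without FVB replicate 2, D6 replicate 1 or 2, or OVE-D6 replicate 1 or 3 (adjusted p from 0.0512 to 0.0592). Ech1, a dienoyl-CoA isomerase, did not pass, at 0.01 ± 0.10 in OVE and 0.13 ± 0.10 in OVE-D6.

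In the carnitine shuttle, the carrier and transferase of the inner membrane rose and 3 other genes did not pass. Cpt1a, the rate-limiting carnitine palmitoyltransferase of the outer membrane, lay between 11.95 and 12.32 on all 12 arrays and differed by 0.11 ± 0.06 on average (adjusted p = 0.291). Cpt2, which regenerates acyl-CoA inside mitochondria, lay at 11.08, 11.05 and 10.95 in FVB, 10.93, 10.97 and 10.78 in D6, 11.34, 11.10 and 11.33 in OVE, and 11.34, 11.33 and 11.31 in OVE-D6. The lowest diabetic array, OVE replicate 2, was 11.10, just above the highest FVB array. Cpt2 rose 1.26-fold on average (0.33 ± 0.06, adjusted p = 0.00786), with 0.23 ± 0.08 in OVE (adjusted p = 0.12) and 0.43 ± 0.08 in OVE-D6 (adjusted p = 0.0609). Slc25a20, the carnitine-acylcarnitine carrier of the inner membrane, lay at 8.89, 8.85 and 8.94 in FVB, 8.68, 8.81 and 8.47 in D6, 9.23, 9.09 and 9.10 in OVE, and 9.24, 9.05 and 9.06 in OVE-D6. The groups were ordered D6, FVB and then both diabetic groups, without overlap between these 3 levels. It rose 1.28-fold on average (0.35 ± 0.07, adjusted p = 0.00949). Crat and Crot, the carnitine transferases for acetyl and medium chains, differed by 0.18 ± 0.06 and 0.15 ± 0.07 on average and did not pass (adjusted p = 0.0685 and 0.228).

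**Figure D2:**
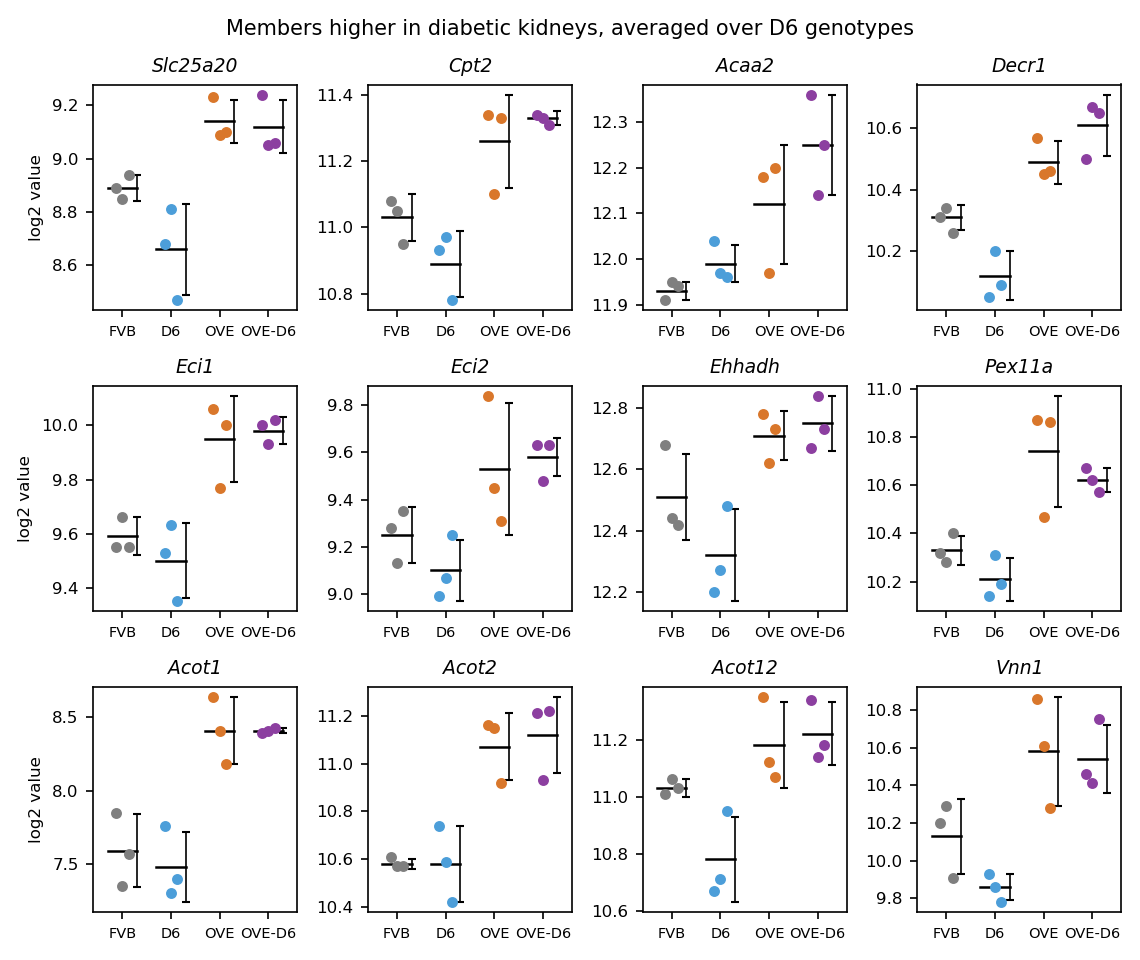
Log2 values of the 12 members that rose on average, 1 panel per gene with its own axis, with a point per array, a bar at the group mean and whiskers of 1 SD (n = 3). Acot1 and Decr1 show no overlap between diabetic and non-diabetic arrays, while for Eci2 and Vnn1 OVE replicate 3 lies within the FVB range.

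Of the 6 peroxisomal genes 2 rose on average. Pex11a, which drives peroxisome division, lay at 10.32, 10.28 and 10.40 in FVB, 10.14, 10.31 and 10.19 in D6, 10.87, 10.47 and 10.86 in OVE, and 10.67, 10.62 and 10.57 in OVE-D6. All diabetic arrays were above 10.4, the highest non-diabetic value. Pex11a rose 1.32-fold in OVE (0.40 ± 0.10, adjusted p = 0.0349) and 1.33-fold on average (0.41 ± 0.07, adjusted p = 0.00782), with 0.41 ± 0.10 in the knockouts (adjusted p = 0.145). The OVE call was lost in 9 of 24 alternatives, among them the fits without any 1 FVB array or OVE replicate 1 or 3 (adjusted p from 0.0703 to 0.11) and the replicate block (adjusted p = 0.0529). Ehhadh, the bifunctional enzyme of the hydration and dehydrogenation steps in peroxisomes, lay at 12.68, 12.44 and 12.42 in FVB, 12.20, 12.27 and 12.48 in D6, 12.78, 12.62 and 12.73 in OVE, and 12.67, 12.84 and 12.73 in OVE-D6. FVB replicate 1 was within the OVE range. Its average rise was 1.24-fold (0.31 ± 0.07, adjusted p = 0.0183), with adjusted p = 0.0505 without FVB replicate 3. Hsd17b4, the other bifunctional enzyme, and Decr2, the peroxisomal dienoyl-CoA reductase, did not pass, with averages of 0.13 ± 0.05 and 0.07 ± 0.06. Acaa1a and Acaa1b, the peroxisomal thiolases, are described with the genotype comparison.

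Vnn1, the pantetheinase of the kidney and a PPAR alpha target, had the largest average rise after Acot1. It lay at 10.20, 10.29 and 9.91 in FVB, 9.93, 9.86 and 9.78 in D6, 10.86, 10.61 and 10.28 in OVE, and 10.46, 10.41 and 10.75 in OVE-D6. OVE replicate 3 lay within the FVB range, and the other diabetic arrays were above it. The rise was 1.48-fold (0.57 ± 0.10, adjusted p = 0.00809). Neither regulator passed the test. Ppara lay between 10.40 and 10.89 and differed by -0.05 ± 0.10 on average (adjusted p = 0.802). Ppargc1a differed by -0.32 ± 0.09 in OVE against FVB (adjusted p = 0.0627) and by 0.11 ± 0.09 in OVE-D6 against D6. The negative OVE value passed with the mean of both its probe sets (-0.35, adjusted p = 0.0381), with a variance trend (adjusted p = 0.0405) and without OVE replicate 1 (-0.43, adjusted p = 0.0187).

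Of the 8 dehydrogenases and later enzymes of the mitochondrial spiral 1 rose, Acaa2. Acadvl, Acadl, Acadm and Acads, the dehydrogenases for very long to short chains, differed on average by 0.12, 0.19, -0.16 and -0.03, with 95% intervals between -0.32 and 0.32 that do not show equality. Acadm, the medium-chain enzyme, lay at 13.13, 12.95 and 12.82 in FVB and at 12.87, 12.62 and 12.67 in OVE, a difference of -0.25 ± 0.11 (adjusted p = 0.184) with overlap at FVB replicate 3. Hadha and Hadhb, the subunits of the trifunctional protein, and Hadh, the short-chain dehydrogenase, had averages of -0.05, -0.01 and 0.03. Hadha and Hadhb are neighbours with 273 bases between their starts. Acaa2, the last thiolase, lay at 11.91, 11.95 and 11.94 in FVB, 12.04, 11.97 and 11.96 in D6, 12.18, 11.97 and 12.20 in OVE, and 12.36, 12.14 and 12.25 in OVE-D6. OVE replicate 2 lay within the D6 range. Acaa2 rose 1.17-fold on average (0.22 ± 0.06, adjusted p = 0.0376), the smallest of the 12 rises. That call was lost in 10 of the 12 fits that left out 1 array, all but those without OVE replicate 2 and OVE-D6 replicate 2 (adjusted p from 0.0511 to 0.0844). Etfa, Etfb and Etfdh, which pass electrons from the dehydrogenases to ubiquinone, had averages of -0.03, 0.14 and 0.10 and did not pass.

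The comparison of OVE-D6 with OVE, and the difference between the effects of diabetes in the 2 genotypes, asked whether loss of D6 altered these genes in the diabetic kidney. No member passed in either comparison with limma, where 0.231% and 0% of all tested genes were called in either direction. At an unadjusted p under 0.05 there were 7 and 8 of the 33 members, beside 2438 and 1647 of all 16480 tested genes. The OVE-D6 mean was the highest of the 4 group means for 25 of 33 members and the lowest for none, and the D6 mean was the lowest for 20. OVE-D6 differed from OVE by a median of 0.10 over the members, with 30 positive estimates, against 0.01 over all tested genes. The arrays did not overlap for 7 members, all higher in OVE-D6 (21.2%, background 9.37%). They were Hadha, Hadhb, Etfa, Etfdh, Acaa1a, Ppara and Ppargc1a. The signed difference made by diabetes was higher in the knockouts for 32 of 33 members, all but Acads, with a median excess of 0.18 against 0.01 over all tested genes. By size it was smaller in the knockouts for Acadm, Hadha, Hadhb, Etfa, Ppara and Ppargc1a and about equal for Acot4. The sign is not particular to the members. Among 31 respiratory chain subunits, a list described below, the signed difference was higher in the knockouts for 27 and lower for 4, with a median excess of 0.07. These comparisons share arrays with each other and with the diabetes comparisons, and genes of 1 array are not independent, so the counts describe 12 mice and are no test.

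**Figure D3:**
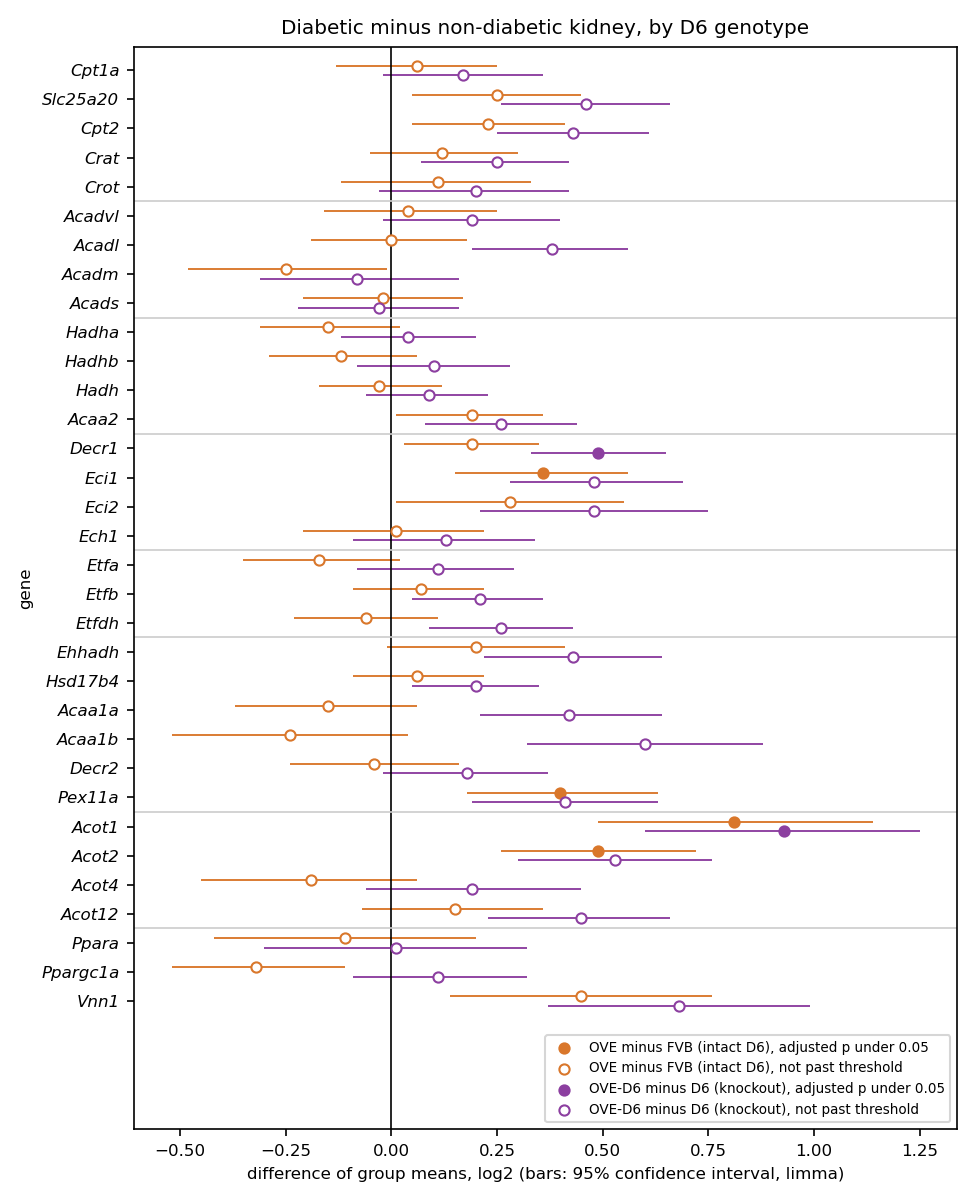
Difference of group means with its 95% confidence interval for each of the 33 members, OVE minus FVB in orange and OVE-D6 minus D6 in purple, with filled points where the adjusted p was under 0.05. The purple points lie to the right of the orange ones for all members but Acads, most widely for Acaa1a and Acaa1b, while Acot1, Acot2 and Pex11a lie close together.

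By the sign of the difference, 19 members were higher with diabetes in both genotypes, Acadm and Acads were lower in both, and 12 were lower in OVE than in FVB and higher in OVE-D6 than in D6. The 12 were Acadl, Hadha, Hadhb, Hadh, Etfa, Etfdh, Acaa1a, Acaa1b, Decr2, Acot4, Ppara and Ppargc1a, and none of them passed the test in either genotype. Several of the OVE values were close to 0, such as 0.00 ± 0.09 for Acadl and -0.03 ± 0.07 for Hadh. They hold 4 of the 8 dehydrogenases and later enzymes of the mitochondrial spiral, 2 of the 3 electron transfer genes and both peroxisomal thiolases.

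Acaa1b and Acaa1a, which carry out the last step of peroxisomal oxidation, had the largest differences between the genotypes. Acaa1b lay at 8.89, 9.20 and 8.95 in FVB, 8.69, 8.64 and 8.38 in D6, 8.77, 8.59 and 8.97 in OVE, and 9.27, 9.28 and 8.96 in OVE-D6. The D6 arrays were all below the FVB arrays and the OVE-D6 arrays all above the D6 arrays, while OVE and FVB overlapped. Its diabetes effect was -0.24 ± 0.13 in OVE and 0.60 ± 0.13 in OVE-D6, a difference of 0.84 ± 0.18 (95% interval 0.44 to 1.24, adjusted p = 0.193). Acaa1a lay at 8.52, 8.58 and 8.73 in FVB, 8.45, 8.58 and 8.46 in D6, 8.58, 8.33 and 8.46 in OVE, and 9.10, 8.80 and 8.86 in OVE-D6. The OVE-D6 arrays were above all 9 others. Its difference between the effects was 0.58 ± 0.14 (adjusted p = 0.225), and OVE-D6 differed from OVE by 0.46 ± 0.10 (adjusted p = 0.0797). Without OVE replicate 3, Acaa1b passed for the difference between the effects (0.93, adjusted p = 0.0195) and Acaa1a passed in OVE-D6 against OVE (0.46, adjusted p = 0.0436), and neither passed under any other setting at an adjusted p of 0.05. In that fit 0.146% of all tested genes were called higher and 2.14% lower for the difference between the effects, and 0.734% and 3.32% in OVE-D6 against OVE, beside 1 of 33 members in each. The genes are close copies, so their probe sets can share signal. Both lie on chromosome 9 before Ackr2, as its 35th and 40th tested neighbour in the RefSeq gene order, so a difference of the DNA that came with the deletion and loss of D6 cannot be told apart in comparisons across genotypes.

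**Figure D4:**
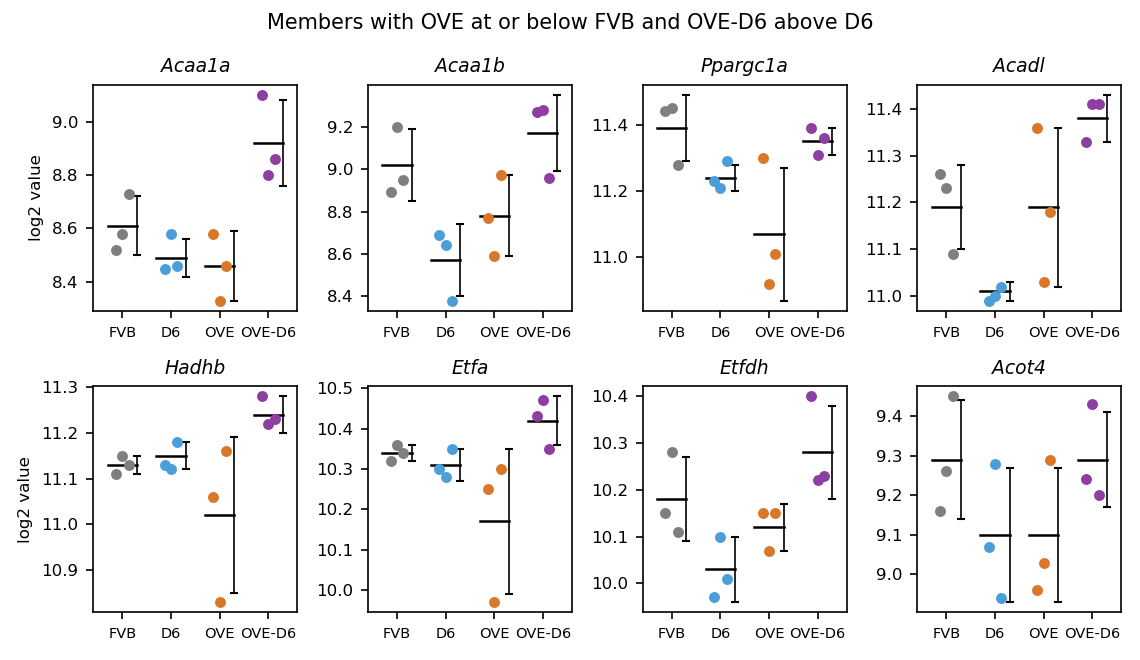
Log2 values of 8 members whose OVE mean was at or below the FVB mean and whose OVE-D6 mean was above the D6 mean, with a point per array, a bar at the group mean and whiskers of 1 SD (n = 3). The OVE-D6 arrays of Acaa1a lie above the other 9 arrays, and OVE replicate 2 is the lowest array for Hadhb and Etfa.

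Ppargc1a, the coactivator of mitochondrial gene programmes, lay at 11.44, 11.45 and 11.28 in FVB, 11.23, 11.21 and 11.29 in D6, 11.30, 10.92 and 11.01 in OVE, and 11.39, 11.31 and 11.36 in OVE-D6. The OVE arrays were the lowest group and overlapped FVB and D6 at OVE replicate 1, and all OVE-D6 arrays lay above all OVE arrays. OVE-D6 differed from OVE by 0.28 ± 0.09 (adjusted p = 0.207) and the effects by 0.43 ± 0.13 (adjusted p = 0.324). Its second probe set gave -0.38 in OVE and 0.08 in OVE-D6. Etfa lay at 10.32, 10.36 and 10.34 in FVB, 10.30, 10.28 and 10.35 in D6, 10.25, 9.97 and 10.30 in OVE, and 10.43, 10.47 and 10.35 in OVE-D6. OVE replicate 2 stood below the other arrays. Hadhb had the same array as its lowest, at 10.83 against 11.06 to 11.28 on the others, and its second probe set gave differences of -0.16 in OVE and 0.13 in OVE-D6 against -0.12 and 0.10. Acadl, the long-chain dehydrogenase, lay at 11.26, 11.23 and 11.09 in FVB, 10.99, 11.00 and 11.02 in D6, 11.36, 11.03 and 11.18 in OVE, and 11.33, 11.41 and 11.41 in OVE-D6. Its D6 arrays were below all others, and its effects differed by 0.38 ± 0.12 (adjusted p = 0.332). For Acot1, Acot2 and Pex11a the effects differed by 0.11 (95% interval -0.34 to 0.57), 0.04 (-0.28 to 0.37) and 0.01 (-0.31 to 0.32), which leaves room for a difference of either sign.

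Without diabetes, no member passed between D6 and FVB with limma, where 0.0121% of all tested genes passed in either direction. At an unadjusted p under 0.05 there were 4 of the 33 members, all lower in D6, beside 630 of all 16480 tested genes. Estimates were negative for 28 of 33 members, with a median of -0.09 against 0 over all tested genes. The groups did not overlap for 6 members that were lower in D6 (18.2%, background 4.2%) and for Acaa2, which was higher (3.03%, background 5.59%). The 6 were Slc25a20, Acadl, Decr1, Etfdh, Acaa1b and Acot12. Among these 6 the furthest from 0 were Acaa1b at -0.44 ± 0.13 and Acot12 at -0.26 ± 0.10. The mean of 7 brown fat markers was 7.81 in FVB, carried by replicates 2 and 3, and 7.18 in D6. With FVB replicate 1 as the only control and D6 replicate 3 kept, the median was -0.11. The part of fat RNA in these differences was not tested. Slc25a20 lies on chromosome 9 too, as the 127th tested gene before Ackr2.

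The mean of the 33 members summed up these shifts array by array. It was 10.61, 10.60 and 10.58 in FVB, 10.51, 10.51 and 10.47 in D6, 10.78, 10.58 and 10.67 in OVE, and 10.82, 10.76 and 10.78 in OVE-D6. The D6 arrays were the lowest, the OVE arrays spread from the FVB level to the OVE-D6 level, and OVE replicate 2 alone reached down to FVB. That array was the lowest of the 3 OVE arrays for 23 of 33 members, and OVE replicate 1 the highest for 24. Among 9 genes of tubular injury, OVE replicate 2 had the highest mean, 9.46 against 8.38 and 8.49 on the other OVE arrays, 7.36 to 8.15 in OVE-D6 and 7.15 to 7.52 in the non-diabetic groups. Markers of proximal tubule (16 genes) had means of 12.4 in FVB, 12.47 in D6, 12.21 in OVE and 12.34 in OVE-D6, and in OVE against FVB 12 of 16 estimates were negative (median -0.18), 6 without overlap between the arrays, and 2 passed the test. Macrophage markers (17 genes) ran from 7.6 to 8.65 in OVE and from 6.93 to 7.51 in the other groups. Of the injury genes 5 of 9 rose in OVE over FVB and 2 of 9 fell in OVE-D6 against OVE, and of 16 macrophage genes tested 13 rose and 3 fell in these comparisons. The part of tubule content or injury in the members' differences was not tested.

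**Figure D5:**
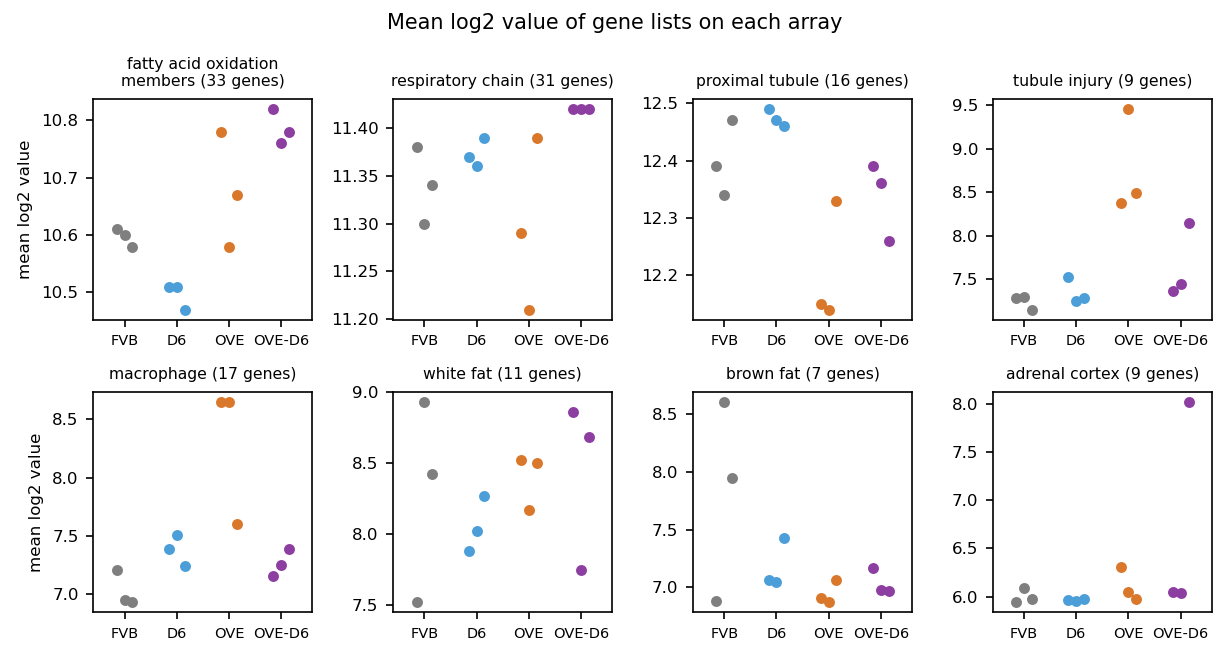
Mean log2 value of the members and of 7 other gene lists on each array, 1 point per array and 1 panel per list with its own axis. The members' means are lowest on the D6 arrays and highest on OVE-D6 replicate 1, brown fat markers are high on FVB replicates 2 and 3, and adrenal markers are high on OVE-D6 replicate 3.

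Subunits of the respiratory chain, the shared outlet for electrons from fatty acids and other fuels, were measured for comparison. Of 31 tested, 1 fell on average, Ndufa2 of complex I (-0.20 ± 0.05, adjusted p = 0.0409), where 3.16% of all tested genes fell. The median was 0.01. In OVE-D6 against OVE all 31 estimates were positive with a median of 0.11, beside a median of 0.10 for the members, and none passed with limma. The arrays did not overlap for 8 of the 31, all higher in OVE-D6, beside 7 of the 33 members and 9.37% of all tested genes. At an unadjusted p under 0.05 there were 4 of the 31, beside 2438 of all 16480 tested genes. On the mean of this list the 3 OVE-D6 arrays were all at 11.42, above the range of 11.21 to 11.39 on the other 9.

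Further genes of fatty acid oxidation were taken from lists of known function. Of 31 further mitochondrial genes, 4 rose and 2 fell with diabetes on average, with a median of -0.04. Acsf2, a medium-chain acyl-CoA synthetase, rose 2.13-fold (1.09 ± 0.08, adjusted p = 3.19e-05), against 0.87 for Acot1, the largest difference among the 33 members. Acot9, a mitochondrial thioesterase, rose 1.25-fold (0.32 ± 0.08), and Oxct1, which activates ketone bodies for oxidation, fell by 0.40 ± 0.06 on the log2 scale (adjusted p = 0.00268). Of 32 further peroxisomal genes, 4 rose and 1 fell, with a median of 0.07. Acox2, the oxidase for branched chains and bile acid precursors, rose 1.41-fold (0.50 ± 0.10), Hacl1, the lyase of alpha oxidation, 1.33-fold (0.41 ± 0.08) and Acox3 1.21-fold (0.28 ± 0.06). Hao2, a peroxisomal hydroxy acid oxidase, fell by 0.30 ± 0.07.

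Of 31 further PPAR alpha targets, 14 rose and 3 fell on average, with a median of 0.24, where 4.49% of all tested genes rose and 3.16% fell. Cyp4a12b and Cyp4a12a, omega-hydroxylases of fatty acids whose near-identical sequences can share probe signal, rose 3.85-fold and 3.53-fold (1.95 ± 0.19 and 1.82 ± 0.21). Angptl4, an inhibitor of lipoprotein lipase, rose 2.96-fold (1.57 ± 0.16, adjusted p = 0.000286), and Pdk4, which restrains glucose oxidation, rose 2.85-fold (1.51 ± 0.17, adjusted p = 0.000529). Of 16 genes of uptake and binding 2 rose, Fabp4 (1.47-fold) and Fabp1, a fatty acid binding protein whose means of 5.78 in FVB and 5.79 in D6 were under the background level of 5.93, so that no fold is given (6.2 in OVE and 6.58 in OVE-D6). In the same list 3 fell, among them Lpl, lipoprotein lipase, by 0.55 ± 0.12 and Vldlr by 0.27 ± 0.06. Fabp4 and Lpl are also abundant in fat. The counts of all these further lists come from all arrays, among them those with RNA of fat or adrenal cortex. Whether these calls hold without those arrays was not tested. Of 26 regulators, Lpin1, a coactivator of PPAR alpha, and Creb3l3 rose 1.51-fold and 1.37-fold, and Esrrg and Hnf4a fell by 0.26 ± 0.06 and 0.20 ± 0.05. In OVE-D6 against OVE and for the difference between the effects, none of these 131 further genes passed with limma, each counted once where lists share it. At an unadjusted p under 0.05 there were 21 and 7 of the 131, beside 2438 and 1647 of all 16480 tested genes.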

How the data were processed

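Whole-kidney RNA of 12 mice was measured on Affymetrix mouse gene arrays, from 100 ng of RNA per mouse with an integrity number above 8.8, per the labels' protocols. The deposited table held log2 values for 35556 probe sets, and its summarisation and normalisation were not given in the sources used here. Array medians lay between 6.84 and 6.93, so the values were used as normalised between arrays and not scaled again. Of the probe sets 21789 had 1 gene symbol after the platform annotation was updated through the RefSeq gene table of GRCm38.p6, 1621 had several and 12146 were not named here. The probe set with the highest mean stood for a gene, and genes above an array's 25th percentile on at least 3 arrays were tested. With 3 arrays per group, precision is limited by their number.

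limma 3.58.1 in R 4.3.3 was fitted with a mean per group over all 12 arrays, with eBayes and Benjamini-Hochberg adjustment over the 16480 tested genes, for 6 comparisons. Fold changes are differences of log2 means, and the script was tested on simulated data. The members, the gene lists and the tests were chosen with earlier results of these data known, so the pattern of the members is no independent support for those results. All members could be named, of each other list up to 4 genes per comparison past the threshold with the largest absolute log2 differences, and markers that define a tissue with their range. The genes that mark sex were named after their values were seen. Nothing says whether mice of a group shared a litter, and p-values measure the spread between these mice. Alternatives changed the filter, normalisation, probe set rule, variance model, arrays, threshold and replicate block, and fat markers as covariates or leaving out 3 arrays with fat or adrenal markers were chosen after seeing the data. A planned comparison of member proteins was not run. Summaries used Python 3.11.15 with pandas 2.3.3, and plots matplotlib 3.10.9.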

Additional observations from a re-analysis of the deposited data

How the results depend on the processing

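Of 4884 values of single members under an alternative, 4624 kept their direction and their side of the threshold, 84 lost a call, 38 gained one, 138 changed sign without a call under either setting, and none with a call changed sign. The count of members called in OVE against FVB, 4 as reported, was 2 with only the 2 groups compared, 0 with brown fat markers as a covariate, 0 without FVB replicates 2 and 3 and OVE-D6 replicate 3, and from 1 to 4 with each array left out (1 of the 2 without OVE replicate 1 was a fall, Ppargc1a), with a median difference of 0.06 that ran from -0.02 to 0.11. In OVE-D6 against D6, where 2 were called, the count was 9 at an adjusted p of 0.10, 5 with the filter at the 50th percentile, 6 with a variance trend, 6 with array weights, 0 without the 3 arrays, and from 0 to 5 with each array left out. Between OVE-D6 and OVE it was 1 in place of 0 at an adjusted p of 0.10, Acaa1a, and from 0 to 1 with each array left out. The average over genotypes gave 12 members as reported, 5 with the brown fat covariate, 1 without the 3 arrays and from 9 to 14 with each array left out. For the difference between the effects it was from 0 to 1 with each array left out, with a median of 0.18 that ran from 0.13 to 0.24. D6 against FVB gave 0 in all alternatives. The share of all tested genes that rose shifted too. In OVE against FVB it was 4.9%, 1.97% with only the 2 groups compared, and 1.63% to 7.57% with each array left out. In OVE-D6 against D6 it was 0.182%, and 0.0728% to 0.279% with each array left out. There it was 0.388% at an adjusted p of 0.10, 0.282% with the 50th percentile filter, 0.285% with a variance trend and 0.334% with array weights. The average gave 4.49%, and 2.3% to 7.07% with each array left out. Fits with fewer arrays have fewer degrees of freedom, and the cause of the other shifts was not tested. The alternative of another pseudocount was not run, since the values were on a log scale.

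The labels give the groups the same replicate numbers. The 18 correlations of same-numbered arrays lay between -0.248 and 0.123, and 1 of 12 arrays was best matched by its own number. These values gave no sign that the numbers pair the mice. They rest on deviations from means of 3 arrays, some with fat RNA, so a weak pairing could go unseen. With the replicate number as a block, 2 members were called in OVE against FVB in place of 4, where 4.19% of all tested genes rose. The counts in the other comparisons were those reported, where 0.115% of all tested genes rose in OVE-D6 against D6 and 3.68% on average.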
